A study of Mus musculus with 13 samples.

Results

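The genes described here are 10 actin cytoskeletal and smooth muscle genes known as targets of serum response factor (SRF), namely Actb, Actg1, Acta2, Actg2, Tagln, Cnn1, Cnn2, Myl9, Vcl and Srf itself. They were found as the rows of the deposited count table whose Ensembl identifier carries one of these symbols, 10 of 55642 genes, and the rule uses no measured value. The set itself was chosen with earlier results of these data known. All 10 passed the filter on low counts, which kept 16848 genes. The RNA came from C2C12 cells, an established mouse myoblast line, reverse transfected with nontargeting siRNAs (siNT, control KD) or with siRNAs to YBX3 (siYBX3, YBX3 KD), an RNA and DNA binding protein of the Y-box family. All libraries were made from cells harvested 48 h after transfection with Lipofectamine RNAiMAX. At 0 day the cells were proliferating myoblasts in medium with 10% fetal bovine serum, and at 1 day they were differentiating myoblasts that had spent the last 24 h in medium with 10% horse serum in its place. At 0 day each siRNA had 4 libraries, lettered A to D. At 1 day there were 2 for control KD, lettered C and D, and 3 for YBX3 KD, lettered B to D. Library totals ran from 33451547 to 71811371 counts. CPM, the unit of all levels below, is a gene's counts scaled to a common library size after TMM, a method that aligns libraries on the bulk of their genes.

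SRF is a transcription factor that binds a short sequence, the CArG box, and is directed by 2 families of cofactors. The myocardin-related factors MRTF-A and MRTF-B (genes Mrtfa and Mrtfb) are held in the cytoplasm by monomeric actin and move to the nucleus when actin polymerizes, where they drive genes of the actin cytoskeleton. The ternary complex factors (Elk1, Elk3 and Elk4) answer to MAP kinase signaling and drive immediate early genes. The serum that is changed when C2C12 cells are made to differentiate is a classical stimulus of both branches. Several genes of the set are used as markers of differentiated smooth muscle, but myoblasts and other cultured cells transcribe them as well.

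The start regions of the genes were searched for the CArG box, since SRF binds it, and the stretches with a match to it or to a looser form of it are printed here. RefSeq promoter windows (GRCm38.p6 table, 250 bases before to 50 bases after the start) were given for 7 of the 10 genes. Actb, Actg2 and Tagln had no entry. The windows were placed in GRCm39 by exact and unique match, and the coordinates below are those of GRCm39. Both strands were searched for the CArG box, which reads the same way on either strand in outline, with a core of 6 bases that are each A or T between CC and GG. A CArG-like match has 5 such bases and 1 G or C in the core. In the lines below the match is in capitals, and each stretch is 30 bases written 5′ to 3′ on the strand of the gene.
Actg1, CArG box, chr11:120239392-120239421, minus strand: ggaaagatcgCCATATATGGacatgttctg
Cnn2, CArG box, chr10:79824368-79824397, plus strand: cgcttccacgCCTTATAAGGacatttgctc
Myl9, CArG box, chr2:156617213-156617242, plus strand: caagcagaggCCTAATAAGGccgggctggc
Vcl, CArG box, chr14:20979229-20979258, plus strand: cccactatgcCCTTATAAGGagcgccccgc
Srf, CArG box, chr17:46867151-46867180, minus strand: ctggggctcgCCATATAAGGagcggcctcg
Srf, CArG box, chr17:46867131-46867160, minus strand: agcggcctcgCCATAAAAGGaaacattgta
Acta2, CArG-like, chr19:34232838-34232867, minus strand: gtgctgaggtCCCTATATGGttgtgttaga
Acta2, CArG-like, chr19:34232788-34232817, minus strand: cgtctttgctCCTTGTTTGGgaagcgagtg
Myl9, CArG-like, chr2:156617275-156617304, plus strand: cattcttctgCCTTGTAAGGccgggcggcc

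A CArG box stood in 5 of the 7 windows, and in 535 of the 32851 windows of the table (1.63%). With CArG-like matches added the numbers were 6 of 7 and 3280 of 32851 (9.98%). Cnn1 had neither in its window. The boxes began 90 bases before the RefSeq start in Actg1, 56 in Cnn2, 161 in Myl9, 227 in Vcl, and 82 and 62 in Srf. In GENCODE vM39 the boxes of Cnn2, Vcl and Srf lie upstream of the annotated gene. The matches of Actg1 and Myl9 and the CArG-like ones of Acta2 lie inside it, in an exon of 7 of 21 transcripts of Actg1, 5 of 9 of Acta2 and 4 of 10 of Myl9, because the annotation also holds transcripts with an earlier start. A match is a description of the sequence. Whether SRF was bound there was not measured.

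The depletion of the target was first checked. Control KD held 311 ± 29.2 CPM of Ybx3 mRNA (SD, n = 6) and YBX3 KD held 45.0 ± 13.2 CPM (SD, n = 7), without overlap. Defining markers of the labelled cell type were present. Chrna1, the muscle acetylcholine receptor alpha subunit, was at 224 to 386 CPM and Myf5, a myogenic transcription factor, at 31.3 to 73.5 CPM, while Myod1 was at 0.601 to 3.32 CPM and Pax7 at no more than 0.179 CPM. The 10 myoblast markers summed to 573 to 655 CPM in control KD and to 551 to 763 CPM in YBX3 KD. Of the markers of differentiated smooth muscle other than the 10 genes themselves, Myh11 (smooth muscle myosin heavy chain) was at no more than 0.114 CPM, Myocd (myocardin) at no more than 0.124 CPM and Itga8 at no more than 0.0470 CPM. The 10 markers of that list, 7 of them counted in every library, summed to 219 to 241 CPM under control KD and 217 to 246 CPM under YBX3 KD, most of it from Smtn and Synpo2. Smtn was at 106 to 156 CPM and Synpo2 at 36.3 to 81.7 CPM, so the list was near 0 for some of its markers and not for others. The 6 fibroblast markers summed to 42.7 to 76.1 CPM under control KD and 30.02 to 81.5 CPM under YBX3 KD, mostly Pdgfra, with Thy1 and Lum at no more than 0.0455 CPM. The endothelial markers summed to no more than 1.46 CPM and the leukocyte markers to no more than 3.92 CPM, with Ptprc at no more than 0.0424 CPM. In bulk RNA, fewer cells of a type and less RNA per cell cannot be told apart.

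The 4 actins differed widely in level. Levels of different genes were compared per kb of merged exons (CPM per kb, GENCODE vM39) in the 4 control KD libraries at 0 day. The 2 cytoplasmic actins led, Actg1 (gamma) with 1374 ± 35.8 CPM per kb (SD, n = 4) and Actb (beta) with 1352 ± 113 CPM per kb, and their libraries overlapped. Acta2, the smooth muscle alpha actin, followed at 258 ± 42.6 CPM per kb. Below it stood Cnn2, the calponin of non-muscle cells that binds actin filaments, at 133 ± 33.0 CPM per kb, and Vcl, which encodes vinculin of focal adhesions, at 71.3 ± 7.85 CPM per kb. Srf stood at 14.5 ± 2.11 CPM per kb, and Myl9, a regulatory light chain of smooth and non-muscle myosin, at 10.9 ± 0.798 CPM per kb. Actg2, the enteric smooth muscle gamma actin, was at 6.999 ± 1.70 CPM per kb and Tagln (transgelin, SM22 alpha) at 3.77 ± 1.22 CPM per kb. Lowest was Cnn1, the calponin of smooth muscle, at 0.283 ± 0.108 CPM per kb. On this scale the libraries of neighbors in the order overlapped between Actg1 and Actb and between Actg2 and Tagln. Merged exons can be longer than any single transcript, and some places turned when the length of the canonical transcript was used instead. Actb (2058 ± 172 CPM per kb) then stood above Actg1 (1877 ± 48.9), and Myl9 (18.0 ± 1.32) above Srf (15.5 ± 2.26), with overlap in both pairs. Cnn2 (133 ± 33.1) and Vcl (111 ± 12.2) then overlapped, while Actg2 (9.47 ± 2.30) and Tagln (4.67 ± 1.52) did not. The other neighbors were apart on both scales.

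**Figure D1:**
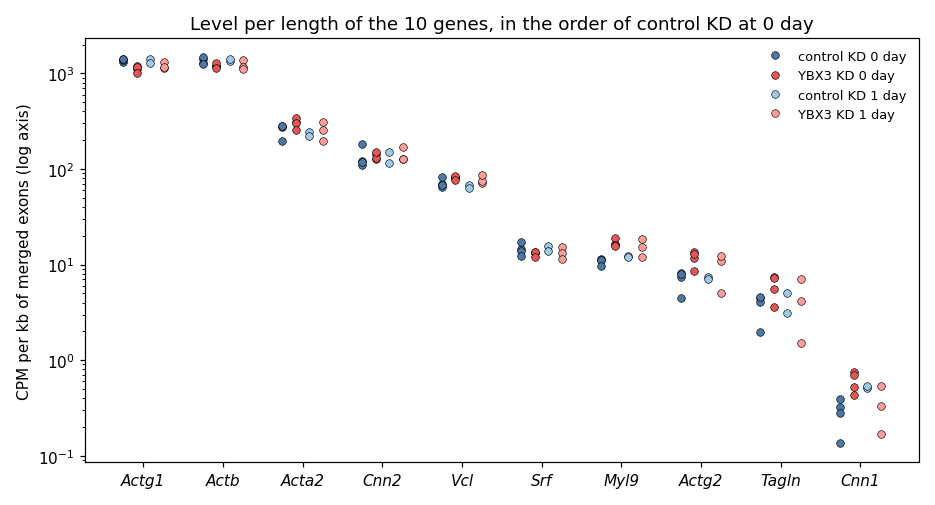
Level per length of the 10 genes in all 13 libraries, as CPM per kb of merged exons on a log axis, in the order of the 4 control KD libraries at 0 day; each point is 1 library and colors mark the 4 groups. Actg1 and Actb lie at the top and overlap, and Cnn1 lies lowest in every library.

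Among all genes tested, the mean CPM of Actg1 lay at the 99.9th percentile and that of Acta2 at the 99.4th, while Actg2 lay at the 52.7th, Tagln at the 42.8th and Cnn1 at the 24.98th. The counts behind the values ranged accordingly, from 117794 to 267236 per library for Actb down to 12 to 147 for Cnn1, so that the values of Cnn1 are the least precise. Skeletal alpha actin (Acta1), the sarcomeric relative that comes on as myoblasts differentiate, was at 0.549 to 34.2 CPM, and the cardiac actin Actc1 at no more than 0.159 CPM.

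The central question was whether depletion of YBX3 altered these genes. Over both time points none of the 10 was called, that is, none had an absolute fold change above 1.3 together with an adjusted p under 0.001 by the quasi-likelihood test of edgeR (Benjamini-Hochberg adjustment over all genes). By these thresholds 19 of the 16848 genes (0.113%) were called. Myl9 alone had an adjusted p under 0.05 in this fit, a limit that 436 genes (2.59%) passed. With the replicate letter as a block (below), 3 of the 10 passed it in edgeR (Myl9, Actg1 and Actg2), as did 10.6% of all genes. Without the block and without adjustment, 5 of the 10 had a p under 0.05, as did 16.6% of all genes. DESeq2 and limma-voom each called 1 of the 10, which was Myl9, among 188 and 185 of the 16848 genes. An adjusted p under 0.05 was reached by 2 of the 10 in DESeq2 (Actg1 and Myl9, among 1179 genes) and by 5 in limma-voom (Actb, Actg1, Actg2, Myl9 and Vcl, among 18.3% of all genes). The estimates were above 0 for 7 of the 10 genes and below 0 for 3, with a median log2 fold change of 0.20 against 0.00215 over all genes tested. Actb, Actg1 and Srf were the 3 with lower estimates. The smooth muscle type genes Acta2, Actg2, Tagln, Cnn1 and Myl9 as well as Cnn2 and Vcl had higher ones.

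Myl9 (ENSMUSG00000067818, chr2:156617084-156623579, plus strand, GRCm39) was higher in YBX3 KD. In control KD at 0 day it was at 26.1, 25.9, 25.7 and 22.3 CPM in replicates A to D, and at 1 day at 28.3 and 27.5 CPM in C and D. In YBX3 KD it was at 37.6, 43.9, 36.6 and 35.8 CPM at 0 day, and at 35.0, 42.1 and 27.2 CPM in B, C and D at 1 day. Thus 6 of the 7 YBX3 KD libraries exceeded every control, and only replicate D at 1 day fell among them. The mean was 25.9 ± 2.07 CPM (SD, n = 6) for controls against 36.9 ± 5.41 CPM (SD, n = 7), or 142% of control, and the log2 fold change was 0.51 (standard error 0.10, edgeR adjusted p = 0.0219). The adjusted p stayed under 0.05 in 7 of 13 fits that left out 1 library. It was 0.0530, 0.0609 and 0.0626 without control KD replicates A, B and C at 0 day, and 0.0577, 0.0503 and 0.0532 without YBX3 KD replicates A, B and C at 0 day, with log2 fold changes between 0.46 and 0.57 over the 13 fits. Without YBX3 KD replicate D at 1 day it was 0.00317.

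Actg2 (ENSMUSG00000059430, chr6:83489887-83513551, minus strand) had the highest estimate of the 10, yet it did not pass. It was at 17.9, 16.3, 17.8 and 9.97 CPM in control KD at 0 day and at 16.6 and 15.6 CPM at 1 day. In YBX3 KD it was at 25.7, 29.9, 28.9 and 18.9 CPM at 0 day and at 24.2, 27.2 and 11.1 CPM at 1 day. Again 6 of the 7 YBX3 KD libraries exceeded every control, with replicate D at 1 day below 5 of the 6. The means were 15.7 ± 2.95 and 23.7 ± 6.63 CPM, or 151% of control, an estimated log2 difference of 0.60 (standard error 0.21, edgeR adjusted p = 0.158). Without YBX3 KD replicate D at 1 day the log2 fold change was 0.71 and the edgeR adjusted p was 0.0255.

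Actg1 (ENSMUSG00000062825, chr11:120236512-120239617, minus strand) was the one with the lowest estimate. Its libraries lay at 3985, 4119, 4215 and 4209.6 CPM in control KD at 0 day and at 4249.8 and 3890.3 CPM at 1 day. In YBX3 KD they lay at 3379, 3633, 3486 and 3068 CPM at 0 day and at 3916, 3436 and 3528 CPM at 1 day. At 0 day the groups did not overlap, and over both time points 6 of 7 depleted libraries lay under every control. The means were 4111 ± 145 and 3492 ± 257 CPM, or 84.9% of control, an estimated log2 difference of -0.24 (standard error 0.07, edgeR adjusted p = 0.0816). Of the 31-base words in the canonical Actg1 transcript (GENCODE vM39), 84.9% occur in other annotated genes too. The lncRNA Gm70496 holds 81.8% of the words, but it was not in the count table and so has no counts there. Processed pseudogenes share many of the words as well, so that the split of reads between them and Actg1 is uncertain. The 4 pseudogenes that shared most and were in the table (Gm12715, Gm8399, Actg-ps1 and Gm16385) summed to 69.2 ± 26.7 CPM under control KD and 51.1 ± 11.3 CPM under YBX3 KD, and with them added to Actg1 the means were 4181 ± 151 and 3543 ± 254 CPM.

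Actb (ENSMUSG00000029580, chr5:142888870-142892509, minus strand) was at 3636 to 4321 CPM in control KD (median 4031) and 3224 to 4004 CPM in YBX3 KD (median 3490.1), and 5 of 7 depleted libraries fell short of every control. The log2 fold change of Actb was -0.17 (standard error 0.07, edgeR adjusted p = 0.272). For Actb 35.2% of the 31-base words were shared with other genes, and 5.61% with Actg1. The counts of the 4 actins together came to 8911 ± 332 CPM under control KD and 7966 ± 536 CPM under YBX3 KD. Within that pool Acta2 took 9.03 ± 1.13% in control KD and 11.4 ± 1.79% in YBX3 KD, Actg2 0.176 ± 0.0292% and 0.295 ± 0.0743%, and Actg1 46.2 ± 2.17% and 43.9 ± 1.92%. The share of Actb was 44.6 ± 1.94% and 44.4 ± 1.36%. These shares are descriptions on the CPM scale and were not tested.

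Acta2 (ENSMUSG00000035783, chr19:34217737-34232990, minus strand) was at 885, 914, 907 and 628 CPM in control KD at 0 day and at 794 and 709 CPM at 1 day. In YBX3 KD it was at 1001, 1095, 978 and 821 CPM at 0 day and at 827, 1010.2 and 628 CPM at 1 day. The groups overlapped, with replicate D low in both, and the log2 fold change was 0.19 (standard error 0.12, edgeR adjusted p = 0.480), or 0.12 without control KD replicate D at 0 day. Tagln (ENSMUSG00000032085, chr9:45840909-45847404, minus strand) was at 9.17, 8.22, 9.43 and 4.04 CPM in control KD at 0 day and at 10.3 and 6.32 CPM at 1 day, against 11.4, 15.0, 14.6 and 7.35 CPM in YBX3 KD at 0 day and 14.3, 8.59 and 3.07 CPM at 1 day. The spread among replicates of Tagln was as large as the difference, which was 0.42 on the log2 scale (standard error 0.32, edgeR adjusted p = 0.550), or 0.27 when YBX3 KD replicate B at 1 day was left out.

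Cnn1 (ENSMUSG00000001349, chr9:22010512-22020926, plus strand) had estimates of opposite sign on the 2 days, a difference that did not pass its test (below). At 0 day it was at 0.890, 0.774, 1.07 and 0.370 CPM in control KD and at 1.19, 2.04, 1.92 and 1.43 CPM in YBX3 KD, and the groups did not overlap. At 1 day it was at 1.40 and 1.46 CPM in control KD and at 1.48, 0.913 and 0.461 CPM in YBX3 KD, where 1 library lay above and 2 lay below the controls. Taking both time points, its log2 fold change was 0.45 (standard error 0.33, edgeR adjusted p = 0.536), or 0.30 when YBX3 KD replicate B at 0 day was left out. Its paralog Cnn2 (ENSMUSG00000004665, chr10:79824410-79831896, plus strand) was at 275 to 450.5 CPM under control KD and 315 to 423 CPM under YBX3 KD, an estimated log2 difference of 0.07 (standard error 0.12, edgeR adjusted p = 0.826) that ran from 0.0049 without control KD replicate C at 1 day to 0.18 without control KD replicate D at 0 day.

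Vcl (ENSMUSG00000021823, chr14:20979449-21083758, plus strand) was at 596, 553, 583 and 706 CPM in control KD at 0 day and at 579 and 538 CPM at 1 day. In YBX3 KD it was at 688, 701, 716 and 662 CPM at 0 day and at 605, 635 and 731 CPM at 1 day. All 7 YBX3 KD libraries were above 5 of the 6 control KD libraries, and the sixth, replicate D at 0 day, lay among them. The log2 fold change was 0.20 (standard error 0.07, edgeR adjusted p = 0.148). Without control KD replicate D at 0 day it was 0.25 and the edgeR adjusted p was 0.0355. Srf (ENSMUSG00000015605, chr17:46857767-46867119, minus strand) was at 54.1 to 76.4 CPM under control KD and 50.7 to 67.6 CPM under YBX3 KD, with means of 64.3 ± 7.63 and 58.2 ± 5.33 CPM and an estimated log2 difference of -0.15 (standard error 0.09, edgeR adjusted p = 0.432), or -0.09 without control KD replicate C at 0 day.

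For none of the 10 genes were the YBX3 KD libraries all above or all below the control KD libraries over both time points, a pattern that 0.95% of the tested genes showed upward and 1.08% downward. At 0 day, Actg2, Cnn1 and Myl9 were separated upward and Actg1 downward, against 4.83% and 4.27% of the tested genes. At 1 day, with 3 libraries against 2, Vcl was separated upward and none downward, against 10.5% and 9.4% of the tested genes.

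**Figure D2:**
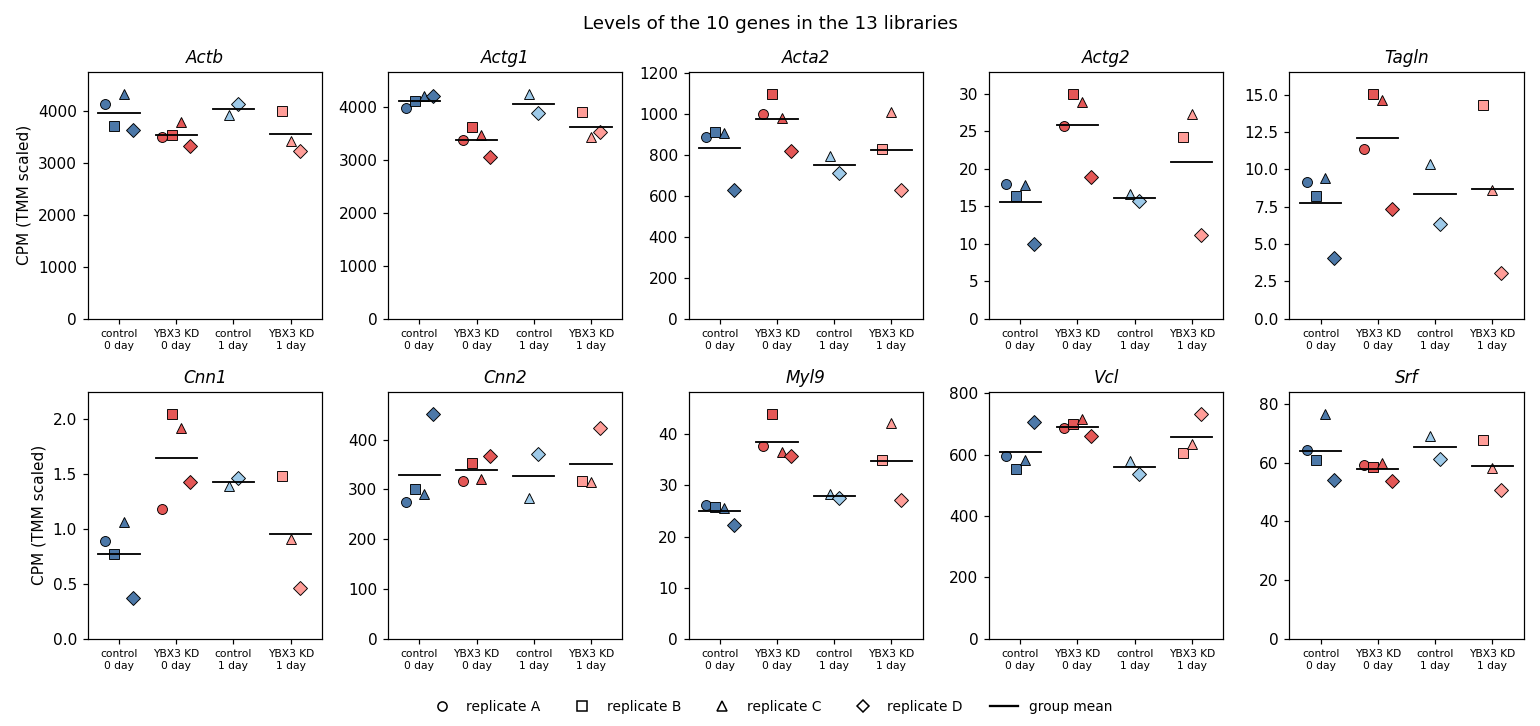
CPM of each gene (vertical axis, starting at 0) in the 13 libraries, grouped by siRNA and day; the marker shape gives the replicate letter and the line the group mean. Myl9 and Actg2 lie higher in YBX3 KD in every library but replicate D at 1 day (27.2 and 11.1 CPM), and the diamonds of replicate D lie low for Tagln and high for Cnn2.

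Replicate D stood apart in these genes as it did in most genes. At 0 day it was below replicates A to C for 7 of the 10 genes in control KD, where 38.3% of all genes were below and 39.8% above, and for 8 in YBX3 KD, where 33.6% were below and 37.5% above. Tagln was lowest in the 4 libraries of letter D, at 3.07 to 7.35 CPM against 8.22 to 15.0 CPM in the other 9. Cnn2 was highest there, at 368 to 450.5 CPM against 275 to 352 CPM. In control KD at 0 day, replicate D had 40.7% of the mean of A to C for Cnn1, 45.2% for Tagln, 57.4% for Actg2 and 69.6% for Acta2, but 156% for Cnn2 and 122% for Vcl. In YBX3 KD the corresponding values were 83.5%, 53.8%, 67.2%, 80.1%, 111% and 94.4%. These libraries came from 33451547 to 41868570 counts, the others from 36819569 to 71811371. The labels do not say what sets replicate D apart, and its cause was not tested.

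The replicate letters were taken to pair the samples, a reading drawn from correlations in these same counts that were highest for letter D. With the letter as a block, 3 of the 10 genes had an edgeR adjusted p under 0.05, as did 10.6% of all genes. They were Myl9 (log2 fold change 0.49, adjusted p = 0.0139), Actg1 (-0.26, adjusted p = 0.0299) and Actg2 (0.54, adjusted p = 0.0480). Leaving out the 4 libraries of letter D reduces control KD at 1 day to 1 library, replicate C, whose spread is then taken to be that of the other groups. Without them, 4 of the 10 genes passed in edgeR, as did 13.2% of all genes. They were Actg2 (0.68, adjusted p = 5.63e-04), Myl9 (0.55, adjusted p = 0.00213), Vcl (0.22, adjusted p = 0.0228) and Cnn2 (0.18, adjusted p = 0.0429), while Actg1 had an adjusted p of 0.0525. Actg2 was then the only one called, as were 0.637% of all genes. Among these 9 libraries, YBX3 KD did not overlap control KD for Actg2, Cnn2, Myl9 and Vcl upward and Actg1 downward. Such separation was seen in 6.16% of all genes upward and 7.15% downward. In the 22 alternative fits over both time points the estimate of each of the 10 genes kept its sign.

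**Figure D3:**
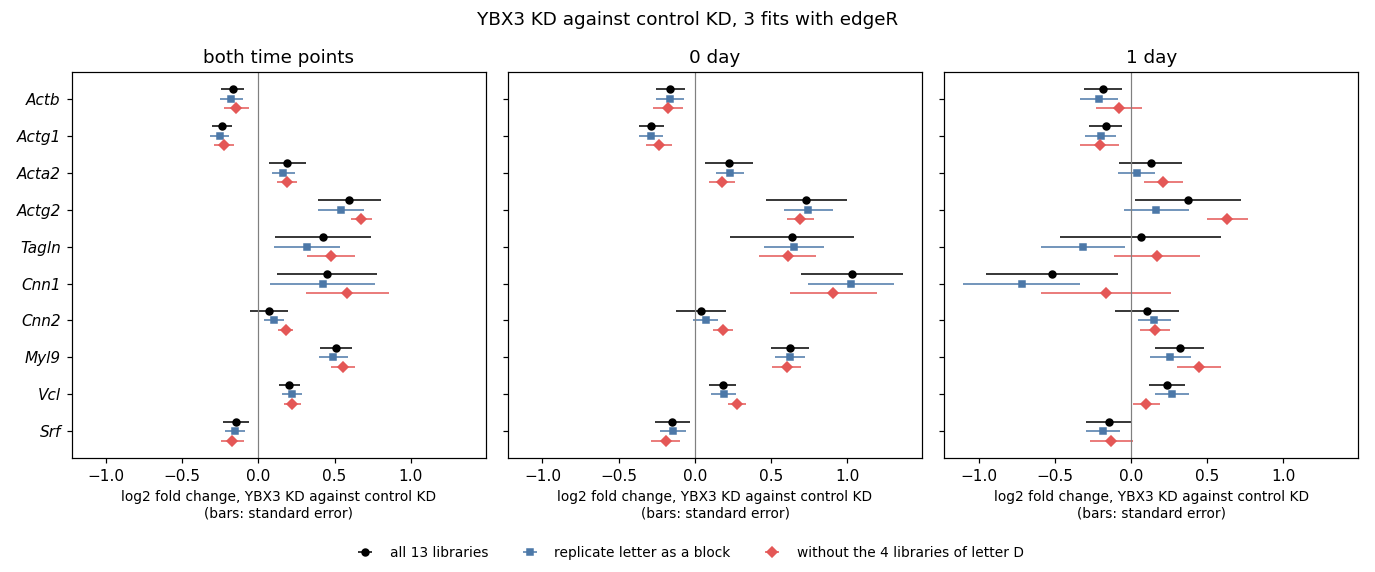
Log2 fold change of YBX3 KD against control KD (horizontal axis) with its standard error for each gene over both time points, at 0 day and at 1 day, in edgeR's fit to all 13 libraries, with the letter as a block and without letter D (1 control KD library at 1 day). The bars of Actg2 shorten without letter D, and Cnn1 lies above 0 at 0 day and below 0 at 1 day.

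Libraries of the same letter and day form 6 pairs, 4 at 0 day and 2 at 1 day. Actb, Actg1 and Srf were lower in YBX3 KD in 6 of 6 pairs, with Actg1 at 72.9 to 90.7% of control, Actb at 77.9 to 95.2% and Srf at 78.5 to 98.9%. Of all genes tested, 7.97% were lower in every pair and 9.35% higher, and none of the 10 was higher in every pair. Acta2, Actg2, Cnn2, Myl9 and Vcl were higher in 5 of 6. For Myl9 the values were 144, 169.7, 143 and 161% at 0 day in A to D, and 149 and 99.1% at 1 day in C and D. For Actg2 they were 143, 183, 162 and 189.7% at 0 day, and 164 and 70.9% at 1 day. Cnn1 and Tagln were higher in all 4 pairs at 0 day and lower in both pairs at 1 day, with Cnn1 at 133 to 387% at 0 day and at 65.4 and 31.5% at 1 day.

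**Figure D4:**
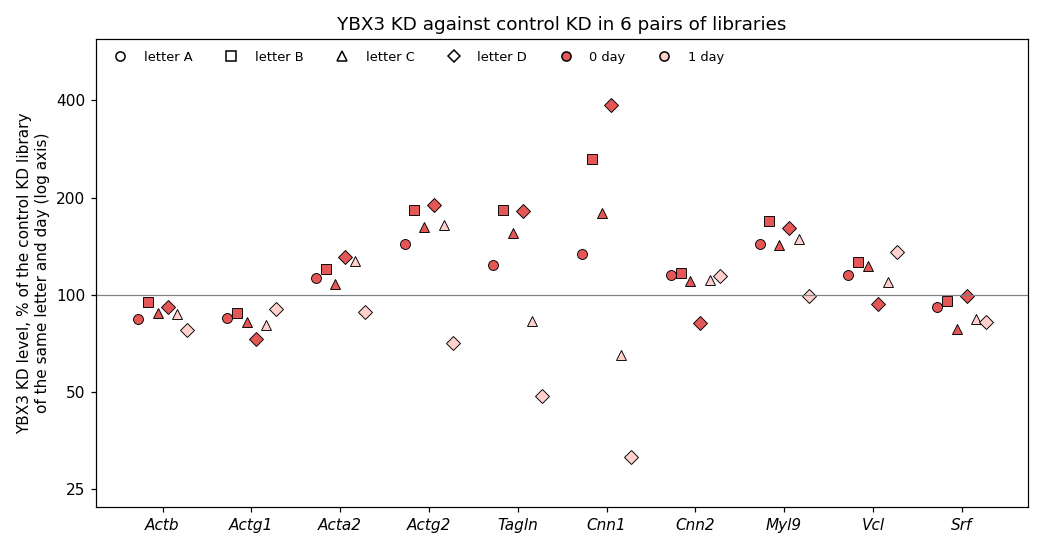
Level in YBX3 KD as a percentage of the control KD library of the same letter and day (vertical log axis) for each gene, with 1 point per pair of libraries, dark for 0 day and pale for 1 day. Cnn1 and Tagln lie above 100% at 0 day and below it at 1 day, and Actb, Actg1 and Srf lie below 100% in all 6 pairs.

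In proliferating myoblasts (0 day), where each arm had 4 libraries, none of the 10 genes was called by edgeR, as against 0.0475% of all genes, and none had an adjusted p under 0.05, as against 0.481%. Without adjustment 4 had a p under 0.05, as did 12.0% of all genes. DESeq2 called 1 of the 10, Myl9 (0.629% of all genes), and limma-voom 0 (0.255% of all genes). An adjusted p under 0.05 was reached by 2 of the 10 in DESeq2, among 506 genes, by 4 in limma-voom (10.6% of all genes) and by 5 in DESeq2 with the letter as a block (7.91%). Myl9 was nearest, with 24.98 ± 1.83 CPM against 38.5 ± 3.68 CPM (SD, n = 4 each) and an estimate of 0.62 on the log2 scale (standard error 0.13, edgeR adjusted p = 0.0571). It passed in the edgeR fit to the 8 libraries of 0 day alone (adjusted p = 0.0406, with 0.449% of all genes), and without YBX3 KD replicate C (0.0410) or D (0.0196) at 1 day. With the letter as a block its edgeR adjusted p was 0.0193, and that of Actg2 was 0.0419 at a log2 fold change of 0.75, in a fit that 2.85% of all genes passed. Without letter D, 3 of the 10 passed in edgeR (5.87% of all genes), Actg2 (0.69, adjusted p = 0.00560), Myl9 (0.60, adjusted p = 0.0103) and Vcl (0.28, adjusted p = 0.0316). The estimates were 1.03 for Cnn1 (standard error 0.34, edgeR adjusted p = 0.226), 0.73 for Actg2, 0.64 for Tagln and -0.28 for Actg1. In differentiating myoblasts (1 day), with 3 libraries against 2, none of the 10 was called by edgeR (0% of all genes) or had an adjusted p under 0.05 (0.0712% of all genes), and none had an unadjusted p under 0.05 (7.88% of all genes). DESeq2 called 0 (0.148% of all genes) and limma-voom 0 (0%), though limma-voom gave 4 an unadjusted p under 0.05 (8.24% of all genes). With the letter as a block 1 of the 10, Vcl, had an unadjusted p under 0.05 in edgeR (27.4% of all genes), and DESeq2 with that block gave 0 of the 10 an adjusted p under 0.05 (13.9% of all genes). The estimates ran from -0.52 for Cnn1 to 0.37 for Actg2. That of Cnn1 was -1.06 without YBX3 KD replicate B and -0.21 without replicate D, and that of Actg2 was 0.14 without replicate C and 0.67 without replicate D. Vcl had the smallest p at 1 day, with an estimate of 0.24 (standard error 0.12, edgeR adjusted p = 0.665), or 0.15 without YBX3 KD replicate D.

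The difference between the effects at 1 day and 0 day was tested directly. None of the 10 genes had an edgeR adjusted p under 0.05, nor did any gene (0%). Cnn1 had the largest difference among the 10, -1.55 on the log2 scale (standard error 0.55, unadjusted p = 0.0158, edgeR adjusted p = 1.00). In that fit, which had no block, it was the only one of the 10 with an unadjusted p under 0.05. With the letter as a block, 2 of the 10 had one in edgeR (11.5% of all genes) and 3 in DESeq2 (12.2%). The difference of Cnn1 in edgeR with that block was -1.74 (adjusted p = 0.416). Without letter D, where the effect at 1 day rests on 1 control KD library, it was -1.07. Tagln differed by -0.57 (standard error 0.66), and leaving out 1 library at 1 day gave -1.15 (YBX3 KD replicate B) to -0.16 (control KD replicate C). Myl9 differed by -0.30 (standard error 0.20), from -0.45 without YBX3 KD replicate C at 1 day to -0.16 without replicate D. Without a block DESeq2 called 0 of the 10 and 1 of all genes, and limma-voom called none of either. DESeq2 with the letter as a block called 0 of the 10 and 11 of all genes (0.0653%).

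The change of serum and the first 24 h of differentiation were compared within each siRNA. In the fit to all 13 libraries without a block, no gene had an edgeR adjusted p under 0.05 in control KD (0%), in YBX3 KD (0%) or over both siRNAs (0%), and none of the 10 had an unadjusted p under 0.05. Without letter D, 40 genes passed in YBX3 KD and 174 over both siRNAs (1.01%), none of them a member. In control KD, where the 1 day arm was then replicate C alone and its spread was borrowed from the other groups, 3 genes passed and none was a member. In edgeR with the letter as a block no gene passed. In that fit Cnn1 had an unadjusted p under 0.05 in control KD (7.45% of all genes), and Acta2, Tagln and Cnn1 had one in YBX3 KD (8.18% of all genes). In DESeq2 with that block 20 genes passed in control KD, 16 in YBX3 KD and 23 over both siRNAs, none of them a member. Of these it called 8, 2 and 3. Without a block DESeq2 called 0 of the 10 and 2 of all genes, both in YBX3 KD, and limma-voom called none of either. In control KD, Cnn1 averaged 0.775 ± 0.296 CPM at 0 day (SD, n = 4) and 1.43 ± 0.0472 CPM at 1 day (SD, n = 2), an estimate of 0.81 (standard error 0.42). In YBX3 KD it averaged 1.65 ± 0.404 CPM at 0 day (SD, n = 4) and 0.952 ± 0.512 CPM at 1 day (SD, n = 3), an estimate of -0.74 (standard error 0.36) that became -1.28 without replicate B and -0.43 without replicate D at 1 day. By letter, Cnn1 at 1 day was at 131 and 395% of 0 day in control KD C and D, and at 72.5, 47.6 and 32.1% in YBX3 KD B, C and D. Acta2 had the estimate farthest from 0 relative to its error over both siRNAs, a log2 fold change of -0.20 (standard error 0.13, edgeR adjusted p = 1.00), or -0.12 without YBX3 KD replicate D at 1 day. The other estimates in control KD lay between -0.15 and 0.16. Leaving out 1 library, which at 1 day leaves a single control, moved them to between -0.31 (1 day replicate C) and 0.41 (1 day replicate D) for Tagln, -0.21 (1 day replicate D) and 0.17 (0 day replicate D) for Cnn2, -0.27 (0 day replicate D) and -0.07 (1 day replicate D) for Acta2, and -0.12 (0 day replicate D) and 0.12 (0 day replicate C) for Actg2, and those of the other 5 genes then lay between -0.19 and 0.18. In YBX3 KD they were -0.47 for Tagln (standard error 0.44), -0.31 for Actg2 (standard error 0.29) and -0.24 for Acta2 (standard error 0.17), and leaving out 1 library at 1 day moved them to between -1.06 (replicate B) and -0.07 (replicate D) for Tagln, -0.54 (replicate C) and -0.01 (replicate D) for Actg2, and -0.42 (replicate C) and -0.08 (replicate D) for Acta2. Those of the other 6 genes lay between -0.15 and 0.10, and without 1 library Myl9 had -0.30 (1 day replicate C) to -0.00045 (1 day replicate D) and the other 5 lay between -0.16 and 0.14. By letter, Tagln at 1 day was at 95.2, 58.7 and 41.8% of 0 day in YBX3 KD B, C and D, and Actg2 at 80.9, 94.3 and 58.6%.

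Some of the genes varied together. After the group means were removed, log2 CPM of Acta2 and Actg2 had a Pearson correlation of 0.94 over the 13 libraries, Actg2 and Tagln 0.92, and Acta2 and Myl9 0.91. Cnn2 ran the opposite way, with -0.84 to Acta2 and -0.83 to Tagln, and Vcl had 0.66 to Cnn2 and -0.75 to Cnn1. Srf had 0.84 to Actb and 0.86 to Tagln. The values of Actg1 ran from -0.17 to Cnn2 up to 0.56 to Tagln. These are descriptions over libraries that share letters, and letter D lies at the end of most of them. Across all 13 libraries, the genes outside the set whose log2 CPM was most like a member, among 9536 genes with a mean of at least 10 CPM, were Tada1 for Myl9 (Pearson r = 0.93), Ctxnd1 for Actg2 (0.95), Hsp90ab1 for Actg1 (0.96), Pidd1 for Tagln (0.98), Gsn for Cnn2 (0.96), Myof for Vcl (0.95), Pfn2 for Acta2 (0.96), Ube2m for Actb (0.94) and Sap18 for Srf (0.96). The next in order were Tmx4 and Faf2 for Myl9, Nrg1 and Eml1 for Actg2, Rpl7a and Rps15 for Actg1, Erfe and Kctd9 for Tagln, Cdc42ep2 and Prr13 for Cnn2, Neurl1a and Bcl6 for Vcl, Trak2 and St8sia2 for Acta2, Taf5l and Got2 for Actb, and Rnf126 and Clpp for Srf. Gsn encodes the actin severing protein gelsolin, Pfn2 a profilin that binds actin monomers and Myof the membrane repair protein myoferlin.

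The wider pathway was examined through 5 lists of genes. Among 32 tested genes of 33 other cytoskeletal targets of MRTF and SRF, the estimates over both time points were above 0 for 22 and below 0 for 10, with a median log2 fold change of 0.06 against 0.00215 over all genes. None was called, and 1 of 32 passed an edgeR adjusted p of 0.05, near the 2.59% of all genes that did. It was Itga5, the fibronectin receptor alpha subunit, at 450.3 ± 16.9 CPM under control KD and 525 ± 26.3 CPM under YBX3 KD (log2 fold change 0.23, adjusted p = 0.0234). All 7 of its YBX3 KD libraries were above all 6 controls, as for 0.95% of all genes. Lmod1, leiomodin of smooth muscle, came next with 0.75 (adjusted p = 0.0666), and Smtn (smoothelin, -0.15) and Tpm3 (a tropomyosin, -0.12) were the lower ones with the smallest p. From 0 day to 1 day over both siRNAs, Tln1 (talin, -0.15) and Csrp1 (-0.16) were the lower ones with the smallest p and Cald1 (caldesmon, 0.09) and Filip1l (0.13) the higher ones, and none passed.

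Of the 14 immediate early genes of the ternary complex branch, 7 had estimates above 0 and 7 below 0 over both time points, with a median of -0.03, and none passed. Egr3 (-0.66, edgeR adjusted p = 0.0870) had the smallest p, followed downward by Egr2 (-0.52), with Klf6 (0.24) and Fosb (0.48) upward. Over both siRNAs the 1 day step gave Mcl1 (0.13) and Junb (0.08) upward and Egr2 (-0.49) and Fosb (-0.24) downward, none of which passed. Of 6 SRF cofactors 5 were tested and none passed. Mrtfa was at 146 ± 17.2 CPM under control KD and 166 ± 21.0 CPM under YBX3 KD (log2 fold change 0.20, edgeR adjusted p = 0.236), Mrtfb had 0.13, Elk4 had -0.19 and Elk3 had -0.02. The 1 day step gave -0.19 for Mrtfa, -0.05 for Mrtfb, 0.06 for Elk3 and 0.04 for Elk1. Myocd, the cofactor of smooth and cardiac muscle, was not tested because its counts were too low.

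Of 12 genes that bind actin monomers or turn filaments over, 6 had estimates above 0 and 6 below 0, and none passed. Pfn1 (profilin 1, -0.25, edgeR adjusted p = 0.281) and Cfl1 (cofilin 1, -0.15) had the smallest p downward, and Pfn2 (0.31) and Cfl2 (0.11) upward. For the 1 day step they were Cfl2 (0.11) and Dstn (destrin, 0.06) upward, and Tmsb4x (thymosin beta 4, -0.19) and Pfn2 (-0.35) downward. Genes of YAP and TEAD signaling, a second mechanosensitive pathway that shares targets with MRTF and SRF, were listed for comparison, and the list holds the effectors Yap1, Wwtr1 and Tead1 beside targets. Of these 12 genes 11 had estimates above 0, with a median of 0.50, and 2 passed, against 2.59% of all genes. Lats2, a kinase that restrains YAP, was at 42.5 ± 2.90 CPM under control KD and 60.4 ± 6.14 CPM under YBX3 KD (log2 fold change 0.52, edgeR adjusted p = 0.00422). Thbs1, the matrix protein thrombospondin 1, was at 2461 ± 232 and 3901 ± 784 CPM (0.67, adjusted p = 0.00892). Both were above all controls in 7 of 7 libraries, as were 0.95% of all genes. Wwtr1, which encodes TAZ, was the one with a lower estimate (-0.19, adjusted p = 0.337). In the 1 day step Thbs1 had -0.28, Axl -0.06, Yap1 0.05 and Ccn2 0.59, and none passed. Of 9 tested myoblast markers 7 had estimates above 0 over both time points (median 0.17), and of 6 tested smooth muscle markers 4 (median 0.06). Musk and Chrna1 among the former passed, with log2 fold changes of 0.59 (adjusted p = 0.0388) and 0.37 (adjusted p = 0.0412), as did Synpo2 among the latter (0.51, adjusted p = 0.0233). Their part in the difference of Myl9 was not tested.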

How the data were processed

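Illumina stranded mRNA libraries of C2C12 cells were sequenced by the authors, who quantified reads with Salmon (GRCm39, Gencode M30). The deposited values are estimated counts, given as unnormalized whole numbers per gene. Tests used edgeR 4.0.16 in R 4.3.3 (filterByExpr on the 4 groups, TMM, estimateDisp, glmQLFit with legacy = FALSE, glmQLFTest) and Benjamini-Hochberg adjustment over all 16848 genes kept. YBX3 KD was compared with control KD with the day as a term, and other contrasts came from a fit with 1 coefficient per group to all 13 libraries. DESeq2 1.42.0 and limma 3.58.1 (voom with sample quality weights) served as alternatives. Figures and summaries were made in Python 3.11.15.

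The members and gene lists were chosen with earlier results of these data known. The named genes were all 10 members, Ybx3, Acta1, Actc1, and from each list every called gene and otherwise the 2 with the smallest p in each direction. For each member the 3 genes of highest Pearson correlation were also named, except that those of Cnn1 are not reported here. Genes beyond these, among them the markers that passed, were named after their values were seen. Symbols and positions are those of GENCODE vM39, in which 54969 of 55642 identifiers were found.

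Each library carries a letter in its labels and a title number, and these disagree at 1 day. Pairing was judged from correlations of log2 CPM, less the group means, across groups. All 16 same-letter pairs exceeded 0.1 (0.117 to 0.730), against 11 of 46 other pairs and 8 of 16 pairs with the same title number. Of the same-letter pairs, 6 were of letter D, at 0.409 to 0.730. Pairs of different letters reached 0.419. Control KD replicate A at 0 day had 0.136 to YBX3 KD replicate A and 0.324 to replicate C at 0 day. The pairing was thus clear for letter D and less so for A to C. The 2 libraries of control KD at 1 day mirror each other, so the pairs are not independent. Nothing in the labels says that replicates were separate cultures, so the p-values measure the spread between these libraries. No 2 libraries of a group agreed within counting noise (chi-square divided by its degrees of freedom 18.0 to 258.7). Only the test over both time points was checked on simulated counts. These held no effect of the letter, so the check does not cover the other comparisons or the deviation of letter D. The alternatives tried were other scaling, no filter, DESeq2, limma-voom, a block for the letter or for the title number, a fit to the compared libraries alone, leaving out letter D, and each library left out in turn. The legacy fit, DESeq2 with the letter as a block and the canonical transcript length were added after seeing the data.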

Additional observations from a re-analysis of the deposited data

Results flagged for a closer look

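In control KD at 0 day, replicate D stood far from the other 3 libraries of its group for 3 of the 10 genes. Acta2 was at 628 CPM there, against 885 to 914 CPM in A to C. Myl9 was at 22.3 CPM, against 25.7 to 26.1 CPM. Cnn2 was at 450.5 CPM, against 275 to 300.3 CPM. A gap above Dixon's critical value for 4 libraries was taken as far. Of the 20 groups searched (10 genes in the 2 groups of 4 libraries), 3 had such a library, where chance gives about 1 in 20. All 3 were the same library, in genes that varied together, so they are not independent and their number cannot be read against that rate.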

How the results depend on the processing

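Over both time points the number of the 10 genes called, 0 in edgeR, was 1 with DESeq2 (Myl9), with limma-voom (Myl9), with DESeq2 and the letter as a replicate block (Myl9) and without the 4 libraries of letter D (Actg2), and it was 1 with an adjusted p of 0.05 alone. Over all genes the number called was 19 in edgeR, 188 with DESeq2, 185 with limma-voom, 424 with DESeq2 and the block, 110 without letter D, 10 with the title number as a block and 9 to 21 without 1 library. At 0 day the members called were 1 with DESeq2 (Myl9, 0.629% of all genes) and 2 with DESeq2 and the letter as a block (Myl9 and Actg2, 1.49% of all genes). With edgeR and the letter as a replicate block the number called was 0 in every comparison, and so it was in each fit without 1 library. An adjusted p under 0.05 over both time points was reached by 1 of the 10 in edgeR, 2 in its legacy fit (2.34% of all genes) and 5 with DESeq2 and the block (17.5%). Myl9 no longer passed 0.05 without the filter on low counts (adjusted p = 0.0603). Apart from the genes named in the report, the block took no further member past or below 0.05 in edgeR. Estimates changed sign between fits, over both time points for 0 of the 10 genes, at 0 day for 1, at 1 day for 3, in the difference between days for 6, and in the step from 0 to 1 day for 6 in control KD, 4 in YBX3 KD and 7 over both siRNAs. Cnn2 at 0 day ran from -0.034 to 0.23 when libraries were left out. At 1 day Cnn2 ran from -0.071 to 0.31 and was -0.018 with limma-voom, Acta2 ran from -0.042 to 0.29, and Tagln ran from -0.52 to 0.47, with -0.31 for the letter as a block, -0.39 for DESeq2 with that block and -0.52 for letters C and D alone. The cause was not tested. At 1 day, 2 control libraries limit what can be seen, and Cnn1 rests on 12 to 147 counts per library.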
